A study of Danio rerio with 12 samples.

Results

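The genes described here carry the names of the zebrafish DNA repair and damage checkpoint machinery. They were taken by name alone, as every row of the expression table whose symbol begins with fanc, rad5, xrcc, msh with a digit from 2 to 6, brca, brip, ercc, parp followed by a digit, or chek, or is atm or atr. This gave 44 genes of 14581 in the table. No row answered to atm or atr, so those apical kinases were not analysed here. Of the 44, 37 belong to a named repair or checkpoint pathway. The other 7 are parp6a, parp8, parp12a, parp12b and parp16, which are further ADP-ribosyltransferase genes, xrcc6bp1, a metalloprotease gene also known as atp23, and ercc6l, a helicase gene of mitosis.

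RNA was measured by sequencing in EGFP-positive neuroblasts sorted from tumours of transgenic zebrafish, with 4 libraries from MYCN tumours and 8 from MYC tumours. All the libraries share the EGFP sort, the Trizol-LS extraction and the depletion of ribosomal RNA. The promoter of the transgenes, the age of the fish and whether a library came from 1 fish are not given in the sources used here, so p-values measure the spread between these libraries, which may be technical. The study set MYC-driven against MYCN-driven disease, and the comparison below is MYC minus MYCN.

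As background, cells repair each kind of DNA lesion by its own route. The Fanconi anaemia proteins unhook crosslinks between the strands, and BRCA2 and its partners rebuild broken DNA from a sister copy. The Ku proteins (XRCC5 and XRCC6) and XRCC4 rejoin broken ends directly, PARP1 and XRCC1 act on nicks, the MSH proteins recognise replication errors, and the ERCC proteins cut out bulky lesions. Checkpoint kinases such as CHEK1 and CHEK2 halt the cell cycle while this goes on. MYC proteins drive cells into S phase, and replication stress is a known feature of MYCN-driven neuroblastoma in people.

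Levels are given as FPKM, fragments scaled by transcript length and by library depth, so they can be set beside each other across genes. The members ranged widely. The highest mean over the 12 libraries was that of fanca (40.2 FPKM), followed by parp16 (30.2), ercc1 (24.0), ercc3 (22.4), parp1 (21.0) and xrcc5 (20.2). At the low end stood brca2 (0.281 FPKM), fancc (0.296), ercc6l (0.537), fancd2 (0.711), chek1 (0.766) and rad51b (0.863). The plot of levels by library shows a division by route. Single-strand break, mismatch, excision and end-joining genes all had means above 1 FPKM where they were detected, and many Fanconi and recombination genes lay near 1 FPKM. Both fancm, the translocase that anchors the Fanconi complex, and xrcc6, the gene of Ku70, were listed at 0 in all 12 libraries. Such a row of zeros is shared by 705 genes of the table. In RefSeq fancm overlaps soul3 and xrcc6 overlaps desi1b, both with rows of their own, and the handling of shared reads is not given. A 0 there need not mean that no RNA was present.

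**Figure D1:**
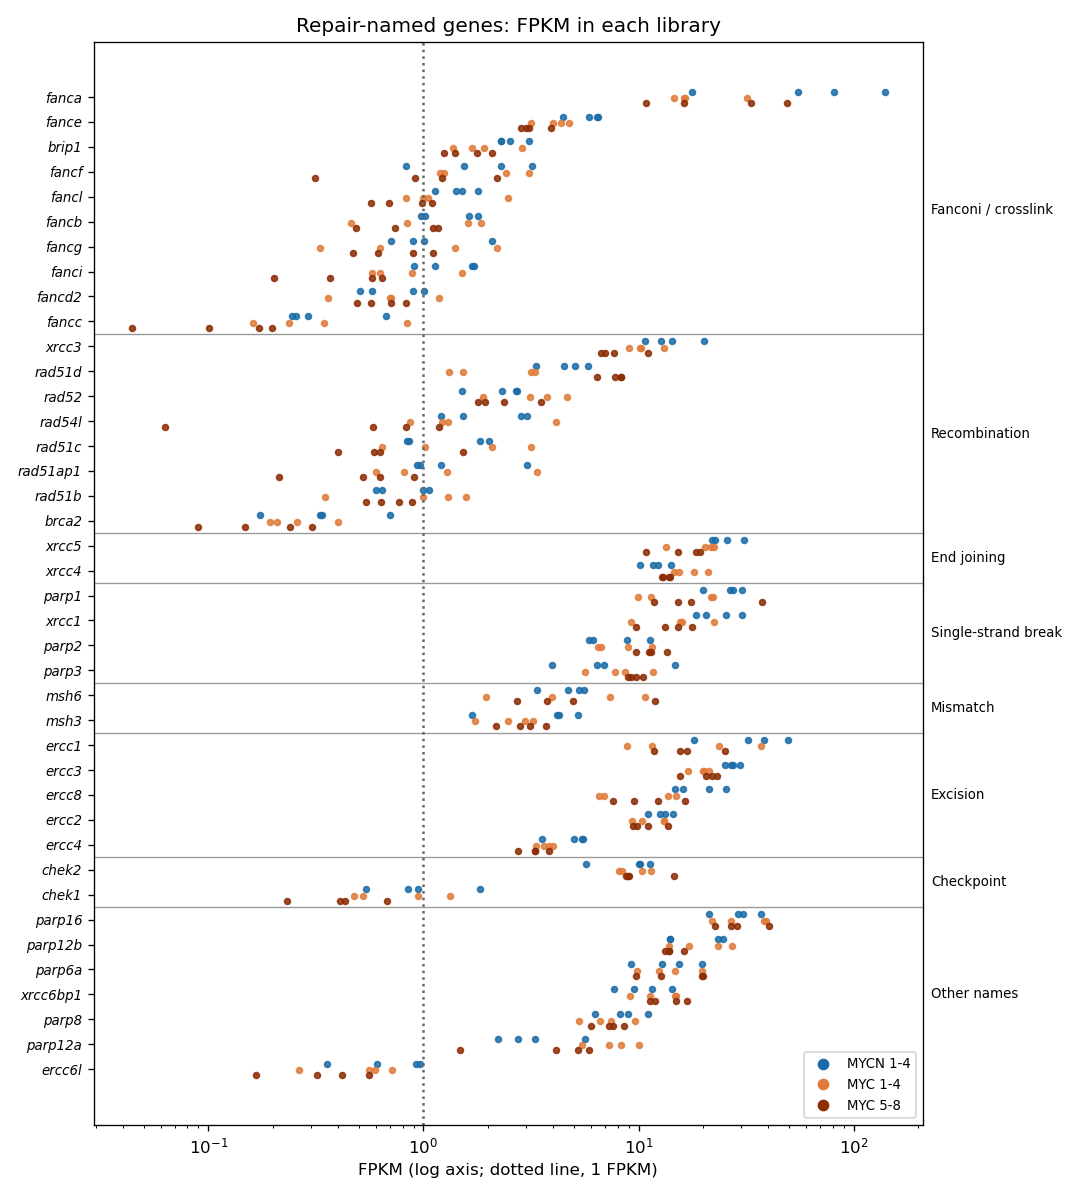
FPKM of 40 of the 42 members above 0 (x axis, log scale), with 1 point for each library, coloured as MYCN 1 to 4, MYC 1 to 4 and MYC 5 to 8, and genes grouped by role and ordered by mean. Most members show overlapping colours, and many Fanconi and recombination genes lie around the dotted line at 1 FPKM.

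The genotype comparison found little that passed the test. A gene was tested if it reached 1 FPKM in at least 4 of the 12 libraries, and log2(FPKM + 1) was fitted with limma, a linear model that shares the estimate of spread across genes. Fold changes are therefore on the FPKM + 1 scale and understate ratios of genes near 0. Of the 44 members, 36 were tested, and the 8 below that filter were brca2, chek1, ercc6l, fancc, fancd2, fancm, rad51b and xrcc6. At an adjusted p under 0.05 (Benjamini-Hochberg over all 9606 tested genes) 1 member fell in MYC, none rose and 35 did not pass. Over all tested genes the share called was 13.4%, with 7.63% lower and 5.77% higher. At an unadjusted p under 0.05 there were 11 of the 36 members, all lower in MYC, against 28.6% of all genes in either direction. The share of all genes that were lower at that threshold is not given here. The log2 fold change was negative for 26 of the 36 members and for 53.9% of all genes, with a median of -0.25 over the members and -0.05 over all genes. With no filter, the median was -0.23 over the 42 members above 0 and -0.004 over all genes. These medians describe the list, and 4 of the tested members passed the filter with fewer than 4 MYC libraries at 1 FPKM.

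**Figure D2:**
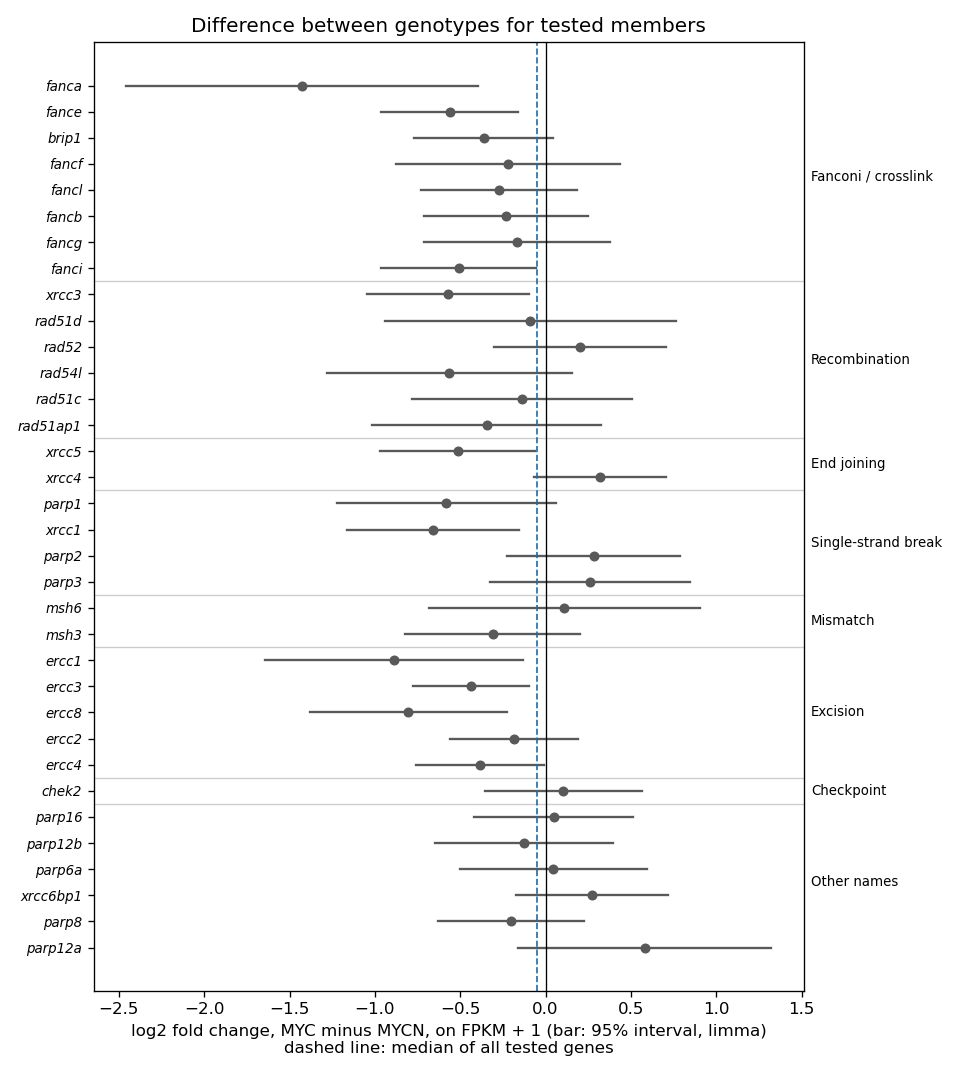
Log2 fold change, MYC minus MYCN, on the FPKM + 1 scale (x axis) for 34 of the 36 tested members, with bars for the 95% interval from limma and a dashed line at the median of all tested genes. None of these 34 passed the test, and most bars reach or come close to 0.

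Replicate numbers 1 to 4 are shared by the genotypes, and libraries of the same number deviated together, so a fit with the number as a block was set beside the first one. Over these 8 libraries, 6 members passed, 5 of them lower in MYC. Among them ercc1, ercc8, fanca and parp1 fell and parp12a rose. The share of all genes called rose as well, to 23.5%, with 13.3% lower and 10.2% higher. The same 8 libraries without the block gave no call among the members, and neither did MYCN against MYC 5 to 8. The share of all genes called in those fits is not given here, so their lack of calls cannot be read as a result about the members.

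The mismatch recognition gene msh6, whose protein acts on mispaired bases, stood at 3.36 to 5.57 FPKM in MYCN. In MYC 1 to 8 its values were 10.8, 7.33, 3.96, 1.95, 11.9, 4.98, 2.72 and 3.74 FPKM. The MYC libraries thus lay on both sides of the MYCN range and MYC 1 and MYC 5 were the highest of all 12 libraries. The genotypes differed by 0.11 ± 0.37 on the log2 scale (SE, adjusted p = 0.882, 95% interval -0.68 to 0.90), a range wide enough to hold differences in either direction. The gene msh3, whose protein acts on small loops, had means of 3.85 ± 1.52 and 2.78 ± 0.633 FPKM (adjusted p = 0.432). In RefSeq msh6 overlaps fbxo11a and kcnk12, of which kcnk12 has no row in the table. The counting strand is not given, so the values of msh6 are uncertain. The same limit holds for the other members that overlap a coding gene, among them parp1, parp2, fanci, rad54l and chek2.

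In nucleotide excision repair all 5 measured genes had lower means in MYC, and none passed. The gene ercc3, which encodes the XPB helicase subunit of the transcription factor TFIIH, stood at 29.5, 26.8, 25.3 and 27.3 FPKM in MYCN 1 to 4. In MYC 1 to 8 it stood at 21.3, 19.98, 16.9, 20.2, 15.6, 20.7, 21.9 and 23.2 FPKM. Every MYC library lay below every MYCN library. Among the members 2 had groups that do not overlap, both lower in MYC, as did 9.33% of all tested genes in either direction and 5.6% with MYC lower. For ercc3 the fit gave a log2 fold change of -0.44 ± 0.16 (SE, limma adjusted p = 0.0846). It passed only when genes were tested with no filter (0.0449).

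The nuclease partners ercc1 and ercc4, whose proteins form the XPF-ERCC1 enzyme that cuts beside a lesion, differed in spread. The gene ercc1 stood at 38.2, 49.3, 18.1 and 32.2 FPKM in MYCN and at 8.82 to 36.9 FPKM in MYC, with a MYC median of 16.2. The groups overlapped through MYCN 3 and MYC 2. The fitted log2 fold change was -0.89 ± 0.35 (SE, adjusted p = 0.114, and 0.0222 with the replicate block). It also passed after each of the other scalings, quantile normalisation (0.0426), median-ratio scaling (0.0473) and a common sum (0.0329). The common sum moved the median log2 fold change of all tested genes from -0.05 to -0.22. Within each number from 1 to 4 the MYC library was the lower one, and number 3 was the lowest of its genotype both times. The gene ercc4 had means of 4.91 ± 0.915 and 3.499 ± 0.408 FPKM (adjusted p = 0.166).

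The gene ercc8, whose CSA protein acts when a polymerase stalls on damage, stood at 25.4, 21.4, 14.8 and 16.1 FPKM in MYCN. In MYC it ranged from 6.53 to 16.4 FPKM with a median of 10.9, and 6 of the 8 libraries lay below the lowest MYCN library. The difference was -0.81 ± 0.27 on the log2 scale (SE, adjusted p = 0.0638, and 0.0143 with the replicate block). It passed after median-ratio scaling (0.0396), after rescaling to a common sum (0.0195) and without MYC 6 (0.0444). MYC 6 was the highest MYC library for ercc8, so leaving it out widened the difference by construction. The XPD helicase gene ercc2, the steadiest member, kept between 9.27 and 14.5 FPKM over the 12 libraries, a ratio of 1.56 between the highest and the lowest. Its log2 fold change was -0.18 ± 0.18 (SE, adjusted p = 0.537, 95% interval -0.56 to 0.19).

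Among genes of single-strand break repair, the scaffold gene xrcc1 stood at 25.6, 30.2, 18.4 and 20.5 FPKM in MYCN and between 9.22 and 22.3 FPKM in MYC. Of the 8 MYC libraries 7 lay below the lowest MYCN value, and MYC 1 lay inside the MYCN range. For xrcc1 the log2 fold change was -0.66 ± 0.24 (SE, adjusted p = 0.0813). It passed after quantile (0.0284) and median-ratio scaling (0.0280) and without MYC 1 (0.0483). MYC 1 was the highest MYC library for xrcc1, so leaving it out widened the difference by construction. The nick sensor gene parp1 stood at 30.4, 27.5, 26.6 and 19.9 FPKM in MYCN. In MYC 1 to 8 its values were 22.1, 21.6, 11.5, 9.94, 37.4, 15.2, 11.9 and 17.6 FPKM. MYC 5 was the highest of all 12 libraries, and the other 7 MYC libraries ranged up to 22.1 FPKM. The log2 fold change of parp1 was -0.58 ± 0.30 (SE, adjusted p = 0.223), and -0.71 ± 0.19 over numbers 1 to 4 with the replicate block (0.0344), a fit that does not hold MYC 5. The related sensors parp2 and parp3 had means of 8.03 ± 2.56 and 8.003 ± 4.65 FPKM in MYCN and of 9.92 ± 2.46 and 9.02 ± 1.83 FPKM in MYC, with log2 fold changes of 0.28 (adjusted p = 0.481) and 0.26 (adjusted p = 0.583).

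In end joining, xrcc5 and xrcc4 pointed to opposite sides. The Ku80 gene xrcc5 stood at 22.8, 21.9, 30.8 and 25.6 FPKM in MYCN and ranged from 10.8 to 22.4 FPKM in MYC, where 7 of 8 libraries lay below the MYCN range. For xrcc5 the log2 fold change was -0.51 ± 0.21 (SE, adjusted p = 0.124). The gene xrcc4, a scaffold for the ligase that seals the ends, stood at 10.2 to 14.1 FPKM in MYCN. In MYC it ran from 12.9 to 21.1 FPKM, with 4 of 8 libraries above the MYCN range, and its log2 fold change was 0.32 ± 0.18 (adjusted p = 0.272). Those 4 were MYC 1 to 4.

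Of the 11 genes of the Fanconi and crosslink route, 8 were tested and none passed. All 10 that were above 0 had lower means in MYC. The gene fanca, a core complex subunit, had the highest mean and the largest SD in FPKM of the route. By the ratio of the highest to the lowest library it came second, at 12.9 against 19.1 for fancc. It stood at 17.8, 81.0, 140.0 and 54.9 FPKM in MYCN 1 to 4 and at 16.5, 16.2, 32.0, 14.6, 10.9, 33.2, 16.3 and 48.9 FPKM in MYC 1 to 8. MYCN 1 lay among the MYC libraries, and the other 3 MYCN libraries lay above all of them. The log2 fold change was -1.43 ± 0.48 (SE, limma adjusted p = 0.0653, and 0.0201 with the replicate block). It was -1.98 without MYCN 1 (adjusted p = 0.0120), passed without MYC 8 (0.0417) and passed after rescaling to a common sum (0.0431). MYCN 1 was the lowest MYCN library and MYC 8 the highest MYC library, so leaving out either widened the difference by construction. In RefSeq fanca overlaps znf276, which has no row in the table, so fragments of both genes could have been counted as fanca.

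The other core subunits were lower in level. The gene fance, which bridges the core complex and its target, stood at 5.90, 6.40, 4.46 and 6.47 FPKM in MYCN and at 2.83 to 4.73 FPKM in MYC, with 7 of 8 MYC libraries below the MYCN range. Its log2 fold change was -0.56 ± 0.19 (SE, adjusted p = 0.0633), and it passed after rescaling to a common sum (0.0426) and without MYCN 3 (0.0470). MYCN 3 was the lowest MYCN library for fance, so leaving it out widened the difference by construction. The ubiquitin ligase gene fancl had means of 1.46 ± 0.274 and 1.08 ± 0.586 FPKM (adjusted p = 0.438), and the MYC 1 library, at 2.46 FPKM, was the highest of all. Among fancb, fancf and fancg the log2 fold changes ran from -0.23 to -0.17 (adjusted p = 0.547 to 0.725).

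The target of that ligase is the FANCD2 and FANCI dimer, the switch of the route. The gene fanci stood at 1.69, 0.900, 1.71 and 1.14 FPKM in MYCN and at 0.202 to 1.51 FPKM in MYC, where 7 of 8 libraries lay below the MYCN range. For fanci the log2 fold change was -0.51 ± 0.21 (SE, adjusted p = 0.128, and 0.0456 after quantile normalisation). It reached 1 FPKM in 3 of 4 MYCN and 1 of 8 MYC libraries, so it passed the filter mainly through the group where it is high. Its partner fancd2 was below the filter, with means of 0.746 ± 0.241 and 0.693 ± 0.246 FPKM. The helicase gene brip1 had means of 2.55 ± 0.383 and 1.79 ± 0.521 FPKM (log2 fold change -0.36, adjusted p = 0.231).

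The means of the homologous recombination genes over the 12 libraries ran from 0.281 FPKM for brca2 to 11.1 FPKM for xrcc3. The gene brca2, which works at resected breaks, was below the filter, at 0.174 to 0.696 FPKM in MYCN and 0.0893 to 0.401 FPKM in MYC.

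The genes rad54l, for a motor that moves along the duplex, and rad51ap1 were highest in library 1 of MYC. The gene rad54l stood at 3.04, 1.21, 2.83 and 1.53 FPKM in MYCN and at 4.11, 1.31, 1.22, 0.864, 0.0626, 0.831, 0.584 and 1.18 FPKM in MYC 1 to 8. The ratio between its highest and lowest library, MYC 1 and MYC 5, was 65.8, the widest among the members. Its log2 fold change between genotypes was -0.56 ± 0.34 (SE, adjusted p = 0.296), and that of rad51ap1 was -0.35 ± 0.31 (adjusted p = 0.517). The gene xrcc3 had means of 14.5 ± 4.08 and 9.38 ± 2.22 FPKM (-0.57 ± 0.22, adjusted p = 0.104). The gene rad52, whose protein anneals single strands, had means of 2.31 ± 0.562 and 2.88 ± 1.04 FPKM (0.20 ± 0.23, adjusted p = 0.622), and rad51c had means of 1.38 ± 0.623 and 1.26 ± 0.959 FPKM (adjusted p = 0.810).

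The gene rad51d, for another recombination protein, split the MYC libraries by number. It stood at 3.29, 3.18, 1.31 and 1.53 FPKM in MYC 1 to 4 and at 8.27, 6.43, 7.80 and 8.27 FPKM in MYC 5 to 8. The MYCN libraries lay between, at 3.34, 5.05, 4.48 and 5.82 FPKM, and none of the 3 sets overlapped with another. Between the genotypes its log2 fold change was -0.09 ± 0.40 (SE, adjusted p = 0.912). Between the MYC sets the log2 difference, 5 to 8 minus 1 to 4, was 1.44 ± 0.28 (SE, limma unadjusted p = 0.000378, adjusted p = 0.0648). It passed after quantile and median-ratio scaling (both 0.0302). In RefSeq rad51d overlaps lig3, a ligase gene of nick repair, whose means were 15.4 FPKM in MYC 1 to 4 and 18.0 FPKM in MYC 5 to 8. The sets were compared because earlier work on this table had divided the MYC libraries so. The zeros of the table do not set that division apart. Of the 281 genes at 0 in exactly 4 libraries, 6 were at 0 in MYC 5 to 8 and 2 in MYC 1 to 4, while 6 were at 0 in MYCN 3, MYC 5, MYC 6 and MYC 8, and 2 mixed sets of MYC libraries held 5 each. The MYCN set held 12.

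No member passed between the MYC sets in limma, where 0.458% of all tested genes did (0.104% higher and 0.354% lower in MYC 5 to 8). At an unadjusted p under 0.05 there were 2, rad51d and parp12a, against 8.77% of all genes. Sets that do not overlap were found for rad51d and xrcc4, and for 5.77% of all tested genes. The xrcc4 values were 14.6, 18.1, 21.1 and 15.4 FPKM in MYC 1 to 4 and 12.9, 13.0, 14.0 and 13.9 FPKM in MYC 5 to 8 (unadjusted p = 0.165).

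**Figure D3:**
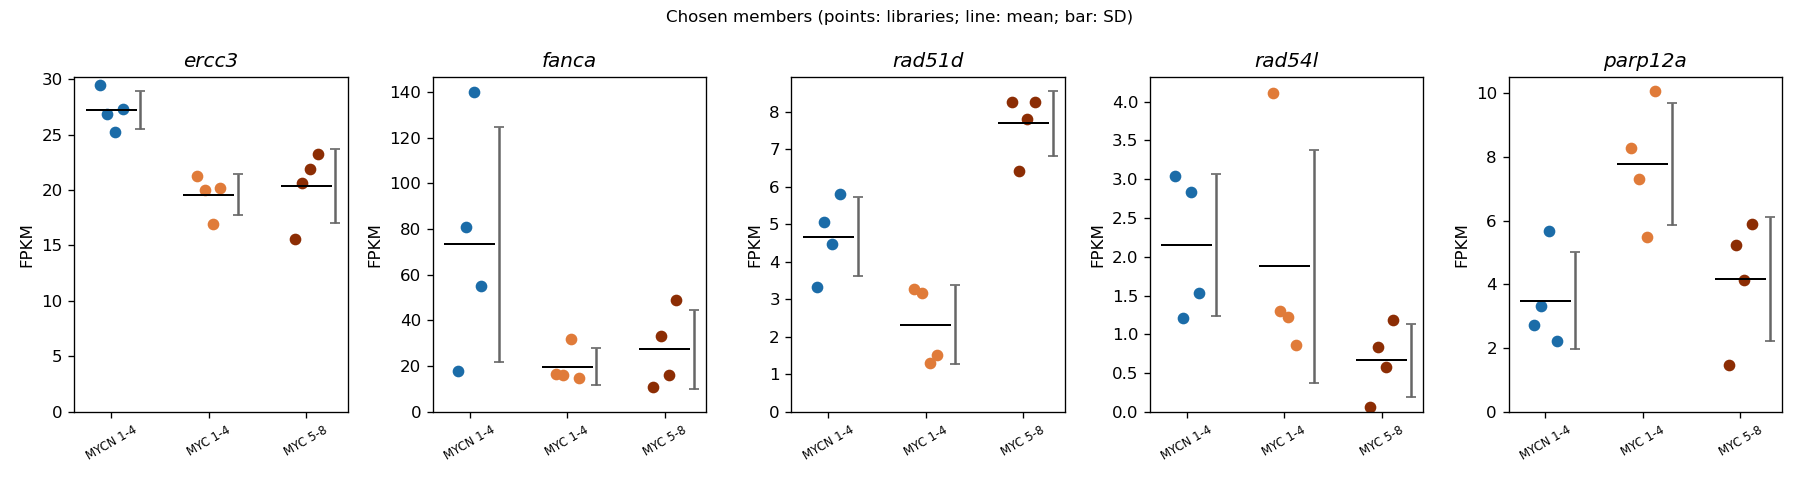
FPKM (y axis, from 0) of 5 members chosen after their values were seen, with 1 point for each library in MYCN 1 to 4, MYC 1 to 4 and MYC 5 to 8, the mean as a line and the SD as a bar. In ercc3 both MYC sets lie below MYCN, in rad51d the MYC sets lie on either side of it, and in rad54l the MYC 1 library stands apart at 4.11 FPKM.

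The checkpoint kinase genes showed no call. The gene chek2, for the kinase that acts downstream of ATM, had means of 9.29 ± 2.44 and 9.95 ± 2.18 FPKM in MYCN and MYC (log2 fold change 0.10 ± 0.21, adjusted p = 0.801, 95% interval -0.36 to 0.56). The gene chek1, for the kinase downstream of ATR, was below the filter. It stood at 1.84, 0.538, 0.945 and 0.851 FPKM in MYCN and at 0.232 to 1.33 FPKM in MYC, and library 1 was the highest of each genotype. With no filter its log2 fold change was -0.32 (adjusted p = 0.332).

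Among the 7 names outside the core routes, parp12a, an ADP-ribosyltransferase gene whose human counterpart is induced by interferon, stood apart. In RefSeq parp12a overlaps tbxas1, which has its own row in the table, and the counting strand is not given, so its values are uncertain. The FPKM of parp12a was 2.74, 3.31, 5.67 and 2.23 in MYCN 1 to 4. In MYC 1 to 8 its values were 8.29, 7.32, 5.48, 10.1, 1.47, 5.23, 4.14 and 5.88 FPKM, with MYC 1, MYC 2, MYC 4 and MYC 8 above all MYCN libraries and MYC 5 below all of them. Between genotypes the log2 fold change was 0.58 ± 0.35 (SE, adjusted p = 0.295), and 1.0 ± 0.30 with the replicate block (0.0492). Markers of leukocytes were also higher in MYC. The summed FPKM of 9 macrophage markers was 30.9 to 633 in MYCN, 462 to 1360 in MYC 1 to 4 and 210 to 328 in MYC 5 to 8, and 7 of the 8 tested rose in MYC and none fell. Among 5 general leukocyte markers there were 4 that rose and 0 that fell, with sums of 18.5 to 51.9, 101 to 203 and 53.1 to 82.0 FPKM. Of 15 tested interferon pathway genes 1 rose and none fell, and with the replicate block 4 rose and none fell. Over all tested genes 5.77% were called higher, and 10.2% with the block. The log2 fold change was positive for 14 of the 15, with a median of 0.78 against -0.05 over all genes. The exception was isg15 (-1.64, limma adjusted p = 0.187). The gene irf1a, below the filter, was lower in every MYC library than in any MYCN library (means 0.167 and 0.657 FPKM). With no filter its limma adjusted p was 0.00186. Single genes among the 16 in the table peaked in different libraries, stat1b in MYC 4 (24.2 FPKM), as parp12a did, and irf7 in MYC 7 (169 FPKM). Much of the summed level of the 16 was b2m alone (2585 FPKM in MYCN 3 and 965 FPKM in MYC 4), so that sum says little about the other genes. MYCN 3, the MYCN library with the most parp12a, had the highest sum (3980 FPKM, against 1300 to 1660 in the other MYCN libraries), but MYC 4, with the most parp12a of all, had 1680 FPKM, the lowest sum in MYC together with MYC 8. Within MYC, the library with the least parp12a, MYC 5, also had the lowest sum of the general leukocyte markers (53.1 FPKM). That sum was still above every MYCN library. MYC 4 and MYC 1, with the most parp12a, had the highest sums of these markers (168 and 203 FPKM). Within MYCN, MYCN 3 had the highest sum (51.9 FPKM), but MYCN 4, with the least parp12a, was next (33.6 FPKM). The macrophage sum of MYC 5 was 236 FPKM, above 3 of the 4 MYCN libraries, and that of MYC 6 was lower (210 FPKM). Much of this sum was cd74a alone (549 FPKM in MYCN 3 and 110 FPKM in MYC 5). For 6 of the 9 macrophage markers every MYC library lay above every MYCN library. Groups did not overlap for 9.33% of all tested genes in either direction. The part of leukocytes or of interferon in the parp12a values was not tested. The gene parp16 stood at 21.2 to 36.9 FPKM in MYCN and 21.9 to 40.3 FPKM in MYC (log2 fold change 0.05, adjusted p = 0.916, 95% interval -0.42 to 0.51).

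Across libraries, the highest and the lowest values of members fell more often in some libraries than in others. Of the 42 members above 0, MYC 1 was the highest library for 10, MYCN 1 for 9 and MYC 5 for 6, while MYC 5 was the lowest for 12 and MYC 3 for 7. The same counts were not made over all genes. Libraries MYC 1 and MYCN 1 also had the highest median FPKM over all genes (5.33 and 5.12, against 2.82 to 4.56 in the other libraries) and the most genes at 1 FPKM or more (9844 and 9513, against 8688 to 9258). The summed FPKM of the 44 members was 447 ± 46.1 in MYCN (SD, n = 4, range 386 to 495) and 330 ± 51.2 in MYC (SD, n = 8, range 269 to 405). The sums overlapped through MYCN 4, MYC 1 and MYC 2. To that sum fanca gave a mean of 73.5 FPKM in MYCN and 23.6 FPKM in MYC.

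**Figure D4:**
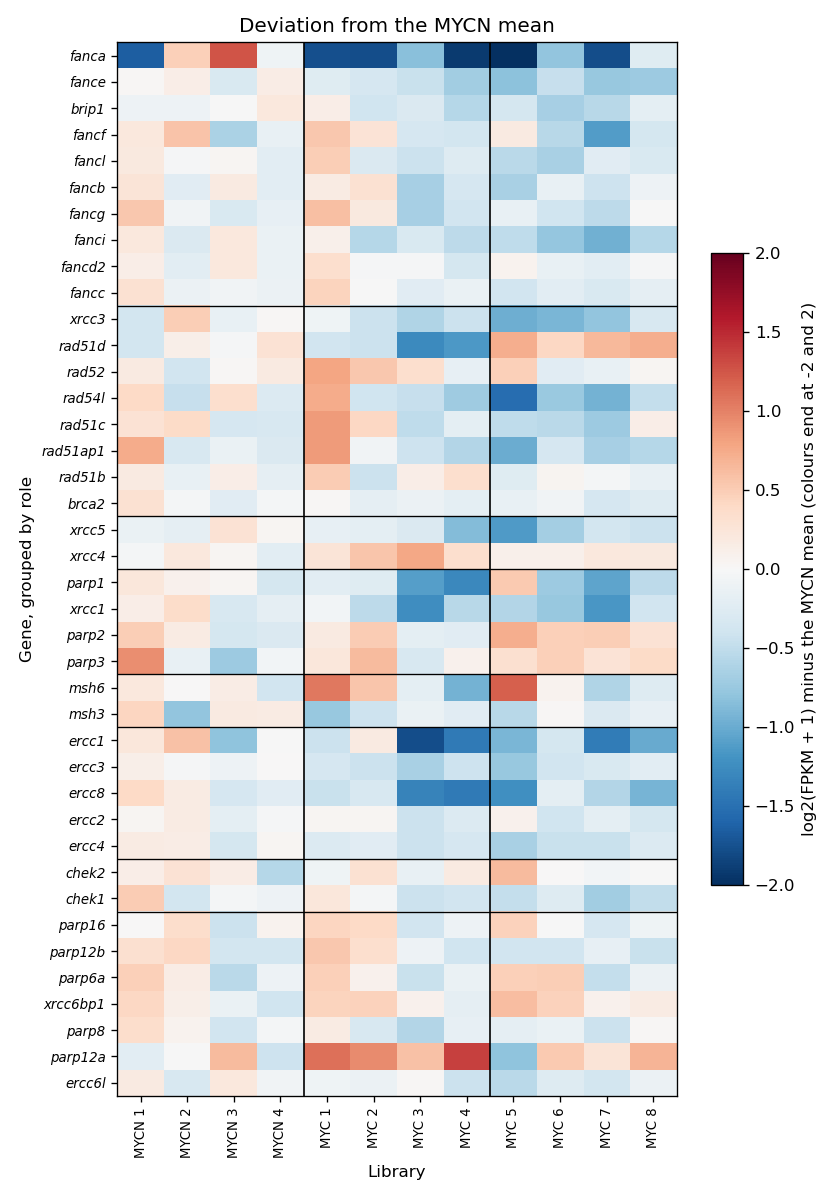
Heat map of log2(FPKM + 1) minus the MYCN mean for 40 of the 42 members above 0 (rows, grouped by role) in the 12 libraries (columns), red above and blue below the MYCN mean. The ercc3 and fance rows are among several that are blue in every MYC library, as are ercc4, ercc8 and xrcc5. The rad51d row is blue in MYC 1 to 4 and red in MYC 5 to 8.

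Other genes of the same pathways, were listed by name outside the rule. Of 126 symbols 84 had a row and 80 were tested, of which 5 fell, 2 rose and 73 did not pass, against 7.63% lower and 5.77% higher over all tested genes. With the replicate block 10 of them fell and 3 rose, against 13.3% lower and 10.2% higher over all tested genes. Their median log2 fold change was -0.09, beside -0.25 for the members and -0.05 for all genes. The gene rev1, a polymerase that copies past damaged bases, fell from 13.8 ± 1.56 to 5.85 ± 1.09 FPKM (-1.12 ± 0.18, adjusted p = 0.00146). The crosslink nuclease gene dclre1a fell from 1.96 ± 0.545 to 0.686 ± 0.233 FPKM (-0.80 ± 0.19, adjusted p = 0.0119). It reached 1 FPKM in 4 of 4 MYCN and 1 of 8 MYC libraries, so it passed the filter through the group where it is high. The helicase gene recql fell from 21.8 ± 5.72 to 11.6 ± 2.39 FPKM (-0.85 ± 0.21, adjusted p = 0.0160), and xab2, a gene of splicing and transcription-coupled repair, rose from 73.0 ± 7.83 to 145 ± 38.7 FPKM (0.93 ± 0.23, adjusted p = 0.0152). The calls of dclre1a, recql and xab2 each ended in some settings. That of dclre1a ended without MYCN 4 (0.0514) and against MYC 1 to 4 (0.0568). That of recql ended without MYCN 1 (0.0687) and against either MYC set (0.0670 and 0.0713), and that of xab2 without MYCN 1 (0.0526) or MYCN 4 (0.0531), with MYC 5 to 8 as the MYC group (0.0780) and on a common sum (0.101).

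Lists that share the cell cycle and damage response were measured beside them. Of 38 tested DNA replication genes 7 fell and none rose, with a median log2 fold change of -0.35, and their summed FPKM over 43 genes was 692 to 1020 in MYCN and 405 to 706 in MYC. Only MYC 1 (706 FPKM) lay inside the MYCN range. Of 19 tested p53 pathway genes 1 rose and 1 fell, with a median of 0.45. Over all tested genes 7.63% were called lower and 5.77% higher, with a median of -0.05. With the replicate block 2 of the p53 pathway genes fell and none rose, against 13.3% lower and 10.2% higher over all tested genes. The part of replication in the values of the repair genes was not tested.

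The sorted cells carried the markers of their labelled type. The summed FPKM of 6 noradrenergic neuroblast genes was 5400 to 7190 in MYCN and 3230 to 4810 in MYC, and none was at 0. Of the 6, 2 fell in MYC and none rose, and 3 fell with the replicate block. Over all tested genes 7.63% were called lower, and 13.3% with the block. Markers of keratinocytes (0.813 to 7.42 FPKM over 4 genes) and endothelium (0.041 to 0.422 FPKM over 3 genes) had low sums, and 3 red cell genes summed to 25.4 to 719 FPKM with no call among them. In such bulk samples, fewer cells of a type and less RNA per cell cannot be told apart.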

How the data were processed

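Expression was measured by RNA sequencing in 12 libraries (4 MYCN, 8 MYC). The values are FPKM computed by the authors, per the table's column labels and the submitters' processing notes, which name cutadapt, TopHat2 2.0.11 and Cufflinks 2.2.1. No source used here gives the build, annotation, strand setting or handling of shared reads. How many reads lie behind a value is unknown: ratios of values under 0.5 FPKM gave no common step (fullest bin 2.74% to 11.0% of genes over 66 library pairs), so no counting interval is given.

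From the deposited FPKM, log2(FPKM + 1) was taken for genes that reached 1 FPKM in 4 or more libraries and went into limma 3.58.1 under R 4.3.3 (eBayes with trend, two-sided, Benjamini-Hochberg, threshold 0.05), fitted on the whole table. The fit was tested on simulated data. Same-numbered libraries deviated together (correlation across genes 0.363, 0.471, 0.564 and 0.163, all over 0.1), so the replicate block is given for members where it changes a call. Counts for the gene lists are without the block unless it is named. Other settings changed the filter, the pseudocount, the scaling or the MYC set, or left out each library. The members and lists were chosen with earlier results of these data known. Members were described if called, if in a short list of core genes, or if at the end of their role group, and of the other repair genes the 4 with the smallest p. List symbols were matched by name or by RefSeq synonym, and 43 of 44 members matched a RefSeq gene of GRCz12tu, used for names and neighbours only, where 16 overlap another coding gene. Dates had replaced 10 gene names. Of the 44 members, 2 are not reported here.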

Additional observations from a re-analysis of the deposited data

Results flagged for a closer look

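Of 84 groups of values examined (42 members, each in MYCN and in MYC), 7 held a library whose gap to its nearest neighbour was large for the range of its group (Dixon's criterion at 95%). Chance alone flags about 1 in 20 groups where values follow a normal distribution and groups are independent. Here the values were FPKM without logs and the groups share libraries, so that rate is only a guide. Library MYC 1 stood high for fancc (0.838 FPKM, next 0.344), fancl (2.46 FPKM, next 1.097), rad51ap1 (3.36 FPKM, next 1.29) and rad54l (4.11 FPKM, next 1.31). Library MYCN 1 stood high for fancc (0.670 FPKM, next 0.289) and rad51ap1 (3.02 FPKM, next 1.21). Library MYC 5 stood high for parp1 (37.4 FPKM, next 22.1). Both libraries numbered 1 also had the highest median FPKM over all genes, and the part of that in these values was not tested.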

How the results depend on the processing

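The count of members called between genotypes was 1 as reported. It was also 1 with a pseudocount of 0.1 and with a filter of 5 FPKM, 2 with no filter, 3 after quantile normalisation, 4 after median-ratio scaling, 5 after rescaling to a common sum, 6 with the replicate block, and 0 against MYC 1 to 4 or MYC 5 to 8. Leaving out 1 library gave 0 to 2, with 0 without MYCN 2. Over all tested genes the share called was 13.4% as reported and 23.5% with the replicate block. That share is not given here for the other settings, so their counts cannot be read as a result about the members. Rescaling to a common sum moved the median of all genes from -0.05 to -0.22. That shift also bears on the values of ercc1, ercc8, fanca and fance on that scale. Between the MYC sets the count was 0 as reported, 1 after quantile normalisation, 1 after median-ratio scaling and 0 in the other settings, leaving out 1 library included. Of 840 values for 40 named genes under the alternatives, 772 kept direction and side of the threshold, 23 passed newly, 15 no longer passed and 30 changed sign, all 30 with no call. The common sum gave chek2 -0.061, msh6 -0.061, parp16 -0.135 and parp6a -0.132. The replicate block and MYC 1 to 4 alone both gave fancf 0.024, parp12b 0.093, parp6a -0.006 and rad51c 0.139, and MYC 5 to 8 alone gave rad51d 0.629. With 1 library left out the ranges were -0.089 to 0.200 for chek2, -0.276 to 0.015 for fancg, -0.045 to 0.260 for msh6, -0.251 to 0.010 for parp12b, -0.095 to 0.162 for parp16, -0.133 to 0.206 for parp6a and -0.212 to 0.080 for rad51d. The cause was not tested. Depth in reads is unknown, so the 8 members below the filter and those near 1 FPKM carry a counting error that could not be given.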
